A study of Homo sapiens with 6 samples.

Results

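Open chromatin around 6 genes that mark neuroendocrine and neuronal cells, CHGA, CHGB, SYP, NCAM1, UCHL1 and ENO2, was examined in cells of the human lung carcinoma line H1155. ATAC-seq, which cuts and tags accessible DNA with a transposase, had been run by the Omni-ATAC protocol on 3 control libraries and on 3 libraries of cells whose labelled genotype is chimera, the libraries titled TA. All libraries are H1155, and the labels leave out what the chimera is, how it was expressed and whether the cells were 1 clone or a pool. Each gene was taken with its span and 50 kb on either side. An open region was any stretch covered by peaks of the 6 deposited lists, joined where peaks shared at least 1 bp, and 102 of 149765 such regions lay in the 6 windows. The lists held 71 to 89 peaks each in these windows, of 85730 to 109321 peaks used per library. Presence of a peak and the authors' fold of each peak were compared between the groups.

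The windows are positions on the build hg19, at a precision of 1 kb, and all positions given for regions are those of the deposited lists. The submitters' processing notes name GRCh38 instead, so the fit was checked against RefSeq gene starts. Regions of all 6 libraries lay within 0.5 kb of 0% to 20.0% of the protein-coding gene starts within 2 Mb of each gene at their GRCh38.p14 positions. With the starts moved together along the chromosome the share rose to between 37.0% (SYP) and 80.0% (CHGB and UCHL1), and the best shift lay 0.087 to 1.44 kb from the one that the hg19 window implies. At shifts over 5 kb from the best, the highest share was 18.5% (SYP) to 60% (CHGB, with only 10 gene starts). Around these genes the lists match the windows better than GRCh38. No annotation of hg19 was used here, so regions are given by their distance from the gene start and not as exonic or intronic.

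Neuroendocrine cells store hormones and amines in dense-core granules and share many genes with neurons, and pathologists use the products of these genes to recognise neuroendocrine tumours of the lung. CHGA and CHGB encode chromogranin A and chromogranin B, acidic proteins that pack the granule core. SYP encodes synaptophysin, a membrane protein of small synaptic-like vesicles. NCAM1 encodes the adhesion molecule CD56, UCHL1 a neuronal ubiquitin hydrolase also known as PGP9.5, and ENO2 the neuron-specific form of the glycolytic enzyme enolase. Open chromatin at a gene start is a usual feature of a gene that can be transcribed, but ATAC-seq does not measure RNA.

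The 250 bases before the start of 4 of the 6 genes are shown because each of the 6 genes had an open region over its start in every library. The sequences are from RefSeq on GRCh38.p14, at chr14:92922900-92923149 (plus strand), chrX:49200194-49200443 (minus strand), chr4:41256678-41256927 (plus strand) and chr12:6914330-6914579 (plus strand), a build other than that of the peaks. They are printed in the direction of transcription. Capitals mark matches to any of 6 motifs, each searched on both strands. The cAMP response element was searched as TGACGTCA, and the site bound by AP-1 as TGACTCA. The GC box known for binding Sp1 was searched as GGGCGG, and the core of the box that positions transcription starts as TATAA. The E-box, a site of basic helix-loop-helix factors, was searched as CAGCTG, and the M-CAT motif of TEAD factors as CATTCC. No matches overlapped in these promoters.
CHGA: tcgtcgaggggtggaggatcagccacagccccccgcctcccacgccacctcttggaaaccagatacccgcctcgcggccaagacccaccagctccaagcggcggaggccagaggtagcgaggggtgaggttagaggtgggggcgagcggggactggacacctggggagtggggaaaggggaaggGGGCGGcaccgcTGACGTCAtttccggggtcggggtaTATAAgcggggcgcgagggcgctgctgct
SYP: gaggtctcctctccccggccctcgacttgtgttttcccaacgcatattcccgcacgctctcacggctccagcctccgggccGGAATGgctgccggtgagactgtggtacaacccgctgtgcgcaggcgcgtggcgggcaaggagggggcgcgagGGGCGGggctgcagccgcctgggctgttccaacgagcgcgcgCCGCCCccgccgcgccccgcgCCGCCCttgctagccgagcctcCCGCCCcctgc
UCHL1: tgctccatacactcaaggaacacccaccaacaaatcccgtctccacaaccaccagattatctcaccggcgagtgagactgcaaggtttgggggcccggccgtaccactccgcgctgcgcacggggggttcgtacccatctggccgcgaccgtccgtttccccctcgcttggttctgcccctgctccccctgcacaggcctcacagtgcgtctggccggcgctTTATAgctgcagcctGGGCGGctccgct
ENO2: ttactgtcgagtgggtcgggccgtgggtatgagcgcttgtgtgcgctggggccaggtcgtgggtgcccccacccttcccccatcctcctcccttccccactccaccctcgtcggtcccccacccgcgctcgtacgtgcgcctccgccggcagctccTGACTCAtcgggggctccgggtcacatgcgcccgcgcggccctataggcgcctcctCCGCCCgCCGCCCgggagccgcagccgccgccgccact

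Each of the 4 promoters held a GC box, as did 42.6% of 35116 RefSeq promoters of this length, and SYP held 4. The CHGA promoter held TGACGTCA from 54 to 47 bases before the start, a motif in 1.65% of promoters, and TATAA from 29 to 25 bases before it, a motif in 18.9%. UCHL1 held TATAA on the opposite strand from 28 to 24 bases before the start. ENO2 held TGACTCA (4.20% of promoters) and SYP held CATTCC on the opposite strand (11.9%). No CAGCTG (14.0%) was in these letters. The promoters were rich in G and C, at 68.8% for CHGA, 74.0% for SYP, 64.4% for UCHL1 and 74.0% for ENO2, against a median of 58.0%. Their ratio of observed to expected CpG was 0.735, 0.913, 0.805 and 0.913 in the same order, against a median of 0.558. These matches describe the letters and not bound sites.

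All 6 genes had open chromatin at their start in all 6 libraries. Open starts were also common around them. At the best shift, 37.0% (SYP) to 80.0% (CHGB and UCHL1) of protein-coding starts within 2 Mb had such a region within 0.5 kb. Of 13 regions within 2 kb of a start, 8 were called in every library, 2 each at CHGA and NCAM1 and 1 at each other gene. Presence of an open start did not separate control from chimera cells for any of the 6 genes. The other 5 start regions were a region 0.832 kb inside ENO2 that lacked a peak only in control 2, a SYP region called in control 1 and chimera 3, and 3 narrow regions called in 1 library each. Over the whole windows 52 of 102 regions (51.0%) were called in all 6 libraries, against 37.8% of all regions.

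**Figure D1:**
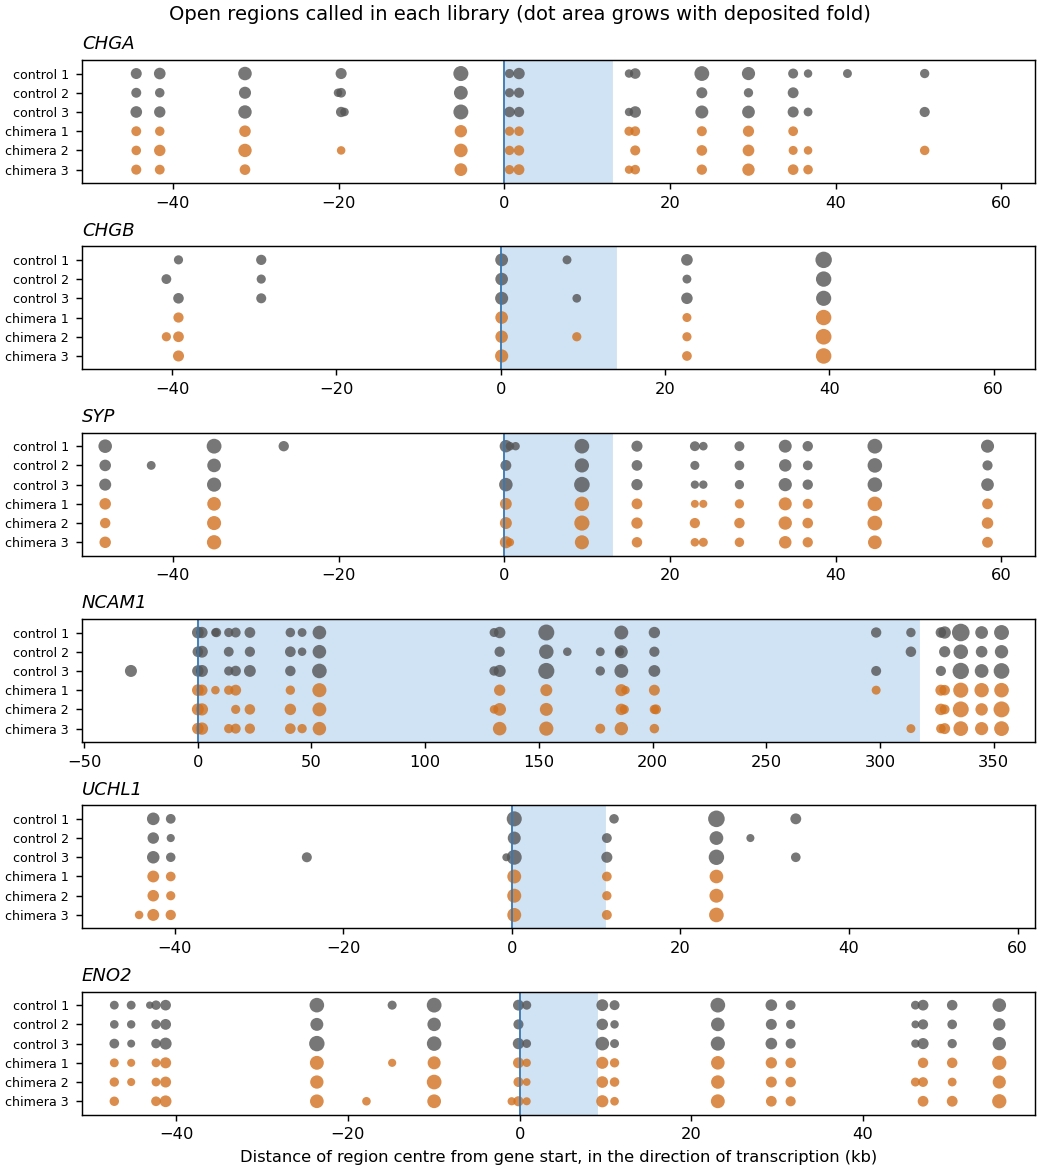
Regions called in each library (rows) by distance of the region centre from the gene start in kb, with dot area growing with the deposited fold and the blue band marking the gene span. Every gene has a column of 6 dots at or beside 0, and 52 of the 102 regions form complete columns.

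No start region differed in fold past the test, and whether the groups are equal there was not tested. The deposited fold is the authors' ratio of the summit height to the library's own local background, and its median over the 56679 regions called in all 6 libraries was 7.80, 6.31 and 8.22 in controls 1, 2 and 3 and 6.65, 7.24 and 6.71 in chimera 1, 2 and 3. For the comparison each library was therefore centred on that median on a log2 scale and tested with limma across all 56679 regions. The labels call the libraries biological triplicates without naming what was replicated, so part of the spread between them may be technical. The p-values rest on that spread as limma moderates it. Each region's own spread is drawn toward that of regions with similar signal, at 13.5 prior degrees of freedom. An SE can therefore differ from the spread of a region's own 6 values.

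For the granins, the CHGB start region (chromosome 20 from 5891435 to 5892797) had folds of 8.86, 8.62 and 9.26 in controls 1 to 3 and 8.64, 8.44 and 9.47 in chimera 1 to 3. The 2 groups overlapped, with a centred log2 difference of 0.10 ± 0.14 (chimera minus control, SE, n = 3 per group, limma adjusted p = 0.853). The CHGA start was weaker than that of CHGB in every library. Its region over the start (chromosome 14 from 93388969 to 93390276) had folds of 3.96, 3.96 and 5.66 in controls and 3.98, 4.19 and 4.08 in chimera libraries. The CHGA region 1.77 kb inside the gene (from 93390352 to 93391191) had 6.84, 5.12 and 5.36 in controls and 4.45, 5.39 and 5.95 in chimera libraries. Both CHGA regions overlapped between groups, with differences of -0.02 ± 0.17 and -0.02 ± 0.18 (SE, limma adjusted p = 0.979 and 0.977).

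For the vesicle protein SYP, the start region (chromosome X from 49056447 to 49057185) had folds of 8.29, 6.12 and 10.02 in controls and 7.38, 7.59 and 7.80 in chimera libraries. The chimera libraries lay inside the wider control range, and the difference was 0.03 ± 0.15 (SE, limma adjusted p = 0.959). The adhesion gene NCAM1 had a region over its start (chromosome 11 from 112831763 to 112832316) with folds of 7.30, 5.75 and 6.87 in controls and 7.21, 7.68 and 7.05 in chimera libraries. After centring all 3 chimera libraries lay above all 3 controls there, but the difference of 0.25 ± 0.15 did not pass the test (SE, limma adjusted p = 0.566). The NCAM1 region 1.83 kb inside the gene (from 112832989 to 112834675) had 6.71, 7.42 and 7.62 in controls and 6.51, 7.97 and 8.18 in chimera libraries, with overlapping groups (0.16 ± 0.17, SE, limma adjusted p = 0.767). That estimate was 0.06 without control 1, 0.29 without control 2 and 0.51 with the mean of the region's peaks, none past the test.

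UCHL1, the neuronal ubiquitin hydrolase, had the highest start fold of the 6 genes in each of the 6 libraries. Its region (chromosome 4 from 41258600 to 41259976) had folds of 12.7, 9.17 and 12.5 in controls and 10.6, 10.9 and 10.7 in chimera libraries, above 88.2% to 94.2% of each library's peaks. The groups overlapped (0.03 ± 0.12, SE, limma adjusted p = 0.956). The ENO2 start region (chromosome 12 from 7023266 to 7024473) had folds of 6.08, 5.04 and 6.65 in controls and 6.06, 4.89 and 5.11 in chimera libraries, above 41.6% to 62.6% of each library's peaks. It also overlapped (-0.04 ± 0.17, SE, limma adjusted p = 0.962). The intervals of 95% for the 8 start regions were as narrow as -0.21 to 0.27 for UCHL1 and reached 0.57 for the NCAM1 region over the start and -0.40 for CHGA and ENO2. These intervals give the range of differences compatible with the 3 libraries per group, and they are not a limit of detection. Larger differences can also miss the threshold on adjusted p. The region 23.8 kb past the CHGA start had a difference of -0.62 and did not pass (limma adjusted p = 0.185).

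**Figure D2:**
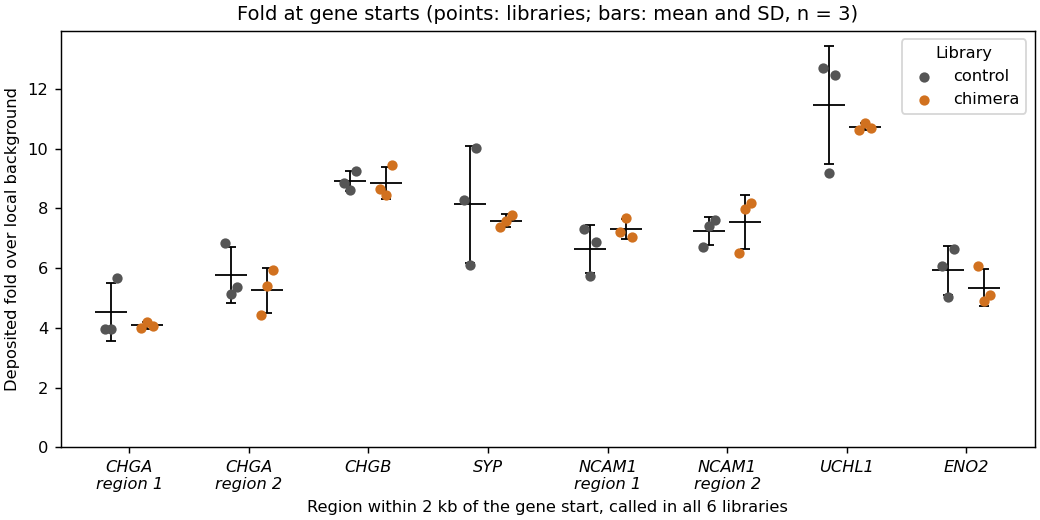
Deposited fold (y axis) of the 8 regions within 2 kb of a gene start that were called in all 6 libraries, with control libraries in grey, chimera libraries in orange, and mean and SD as bars (n = 3 per group). Control and chimera points overlap at each start, with UCHL1 highest at 9.17 to 12.7.

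Across the windows, 1 of 102 regions was open in one group only. It lay in the flank of CHGB, 29.2 kb before the start (chromosome 20 from 5862421 to 5863272), with folds of 5.26, 3.95 and 4.95 in controls 1, 2 and 3 and no peak in any chimera library. Regions with 3 of 3 control and 0 of 3 chimera peaks were 0.799% of all 149765 regions, and the opposite pattern, which no region of the windows had, was 0.621%. The share in the windows is thus near that of all regions. The recovered summit pileup, the number of overlapping fragments or reads that the deposited fold and p imply, was 19, 16 and 20 in the controls. The lowest pileup of any called peak was 10, 9 and 12 in chimera 1, 2 and 3, and the median pileup over regions called in all 6 libraries was 41 to 65, so the control peaks were low ones. A region without a peak can still have held signal below the calling threshold. A second region, 33.7 kb past the UCHL1 start (chromosome 4 from 41292514 to 41292843), had folds of 6.07 and 4.48 in controls 1 and 3 and no peak in the 4 other libraries. With at least 2 control peaks and 0 chimera peaks, both regions together make 2 of 102 (1.96%), below the 3.85% of all regions with this pattern, and the opposite pattern was found in 0 of 102 and in 2.78% of all regions.

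Of the 49 remaining incomplete patterns, 22 were regions called in 1 library, 16 of them in a control and 6 in a chimera library. These 22 are 21.6% of the 102 regions, against 29.7% of all regions, and over all regions 48.7% of such single calls were in a control. Whether the split in the windows differs from that share was not tested. A further 10 regions were called in 5 libraries, and in 5 of these the missing peak was that of control 2, the library with the fewest peaks, which was also the missing one in 41.1% of all regions called in 5 libraries. The NCAM1 window, the widest at 417 kb, had the most incomplete regions by count, 18 of 29. In proportion the ENO2 and SYP windows had the fewest, 7 of 21 and 5 of 16. The share called in all 6 libraries was 36.4% for UCHL1, 37.5% for CHGB and 37.9% for NCAM1, so NCAM1 did not stand out in proportion. The windows differ in how many other genes they hold. In RefSeq's gene order ENO2 has 9 other protein-coding genes within 50 kb (among them TPI1, ATN1, PTPN6 and PHB2) and SYP has 5 (MAGIX, PLP2, PRICKLE3, CACNA1F and CCDC22). CHGB has 3 (SHLD1, TRMT6 and MCM8), and CHGA, NCAM1 and UCHL1 have 1 each (ITPK1, TTC12 and APBB2). Flank regions may belong to these neighbours, and only 36 of 102 regions overlapped the span of a marker gene.

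The number of peaks and the length of open chromatin per window were lower in chimera libraries on average in each of the 6 windows. How often this holds elsewhere in the genome was not computed, so these directions have no background to be set against. The groups separated only in the open length of CHGB, and that separation was lost with stricter peaks, lists of equal length or a shorter flank. Peak counts were 15, 11 and 15 in controls 1 to 3 and 11, 14 and 14 in chimera 1 to 3 for CHGA, and 23, 20 and 22 against 19, 20 and 19 for NCAM1. CHGB had 6, 5 and 7 peaks in controls and 4, 6 and 4 in chimera libraries, and UCHL1 6, 7 and 8 against 5, 5 and 7. SYP had 17, 14 and 12 peaks against 13, 13 and 15, and ENO2 22, 19 and 18 against 19, 20 and 19. In all 6 windows the counts of the groups overlapped (exact permutation p = 0.2 to 1, two-sided, where 0.1 is the smallest that 3 against 3 allow). Of all tiles of 100 kb, 2.10% had fewer peaks in every chimera than in every control library and 2.04% had more. The windows were placed on genes and are 109 to 417 kb wide, so the tiles are only a rough background for them.

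Open length separated the groups in 1 window. The CHGB window held 3.51, 3.22 and 3.68 kb of peaks in controls and 2.96, 3.15 and 2.81 kb in chimera libraries, all 3 below the controls (exact permutation p = 0.1, the smallest possible). The region found in controls alone is part of this difference. The mean difference was -496 bp, and it shrank to -89 bp when −log10 q had to reach 5, -65.7 bp when it had to reach 10, -232 bp with lists of equal length and -50.7 bp with a flank of 20 kb (exact permutation p = 0.8, 0.9, 0.2 and 0.6). Lower open length in every chimera library was found in 5.21% of tiles of 100 kb and higher open length in 4.02%. These tiles too were not matched to the windows. In the other 5 windows the lengths overlapped, from 3.30 to 4.76 kb for UCHL1 to 10.1 to 13.0 kb for ENO2.

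None of the 52 regions called in all 6 libraries passed the test of fold. Adjusted p was at least 0.185 (limma, Benjamini-Hochberg over 56679 regions), and over all regions 0.00706% were called higher and 0.00353% lower. At an unadjusted p under 0.05 there were 6 of 52 regions (11.5%), 3 of them lower in chimera libraries, against 11.3% of all regions. The median log2 difference of the 52 regions was 0.03 and that of all regions 0.03. In 4 of 52 regions all 3 chimera libraries lay below all 3 controls after centring and in 5 they lay above, which is 6.99% and 9.50% over all regions.

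The windows differed in the sign of their small differences. Of 9 regions of the CHGA window called in all 6 libraries, 8 were lower in chimera libraries (median -0.19). Only the 2 start regions of that window overlapped the span of CHGA. Lower in the other windows were 1 of 3 regions for CHGB (0.08), 2 of 11 for SYP (0.05) and 4 of 11 for NCAM1 (0.16). For UCHL1 they were 2 of 4 (0.01) and for ENO2 6 of 14 (0.02). Over all regions 45% were lower. These counts are a description with no test. The CHGA start regions had the smallest differences of that window, at -0.02 each, and the positive one was 0.16. With all 6 libraries, the largest difference of the 52 regions was that of a region 23.8 kb past the CHGA start (chromosome 14 from 93412503 to 93413172), beyond the end of CHGA on the side of ITPK1, with folds of 12.3, 6.25 and 9.19 in controls and 4.98, 5.78 and 5.34 in chimera libraries. Every chimera library lay below every control, although control 2 was close to chimera 2. The centred difference was -0.62 ± 0.18 and did not pass the test (SE, n = 3 per group, limma adjusted p = 0.185). Without control 1 it was -0.43 (limma adjusted p = 0.491), smaller than the -0.45 of the NCAM1 region from 112985007 in the same fit.

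The same region of the CHGA window, outside the span of CHGA, passed when the recovered summit pileup was tested in place of the fold. Its pileup was 93, 51 and 76 in controls and 32, 36 and 41 in chimera libraries. Relative to the median pileup of the regions called in all 6 libraries this was 1.82, 1.24 and 1.17 in controls and 0.667, 0.750 and 0.732 in chimera libraries, with no overlap. The log2 difference was -0.93 ± 0.19 (SE, n = 3 per group, limma adjusted p = 0.00152), and it lost the call without control 1, the highest library (-0.72, limma adjusted p = 0.0763). It was the one call among the 52 regions in this test, which called 1.16% of all regions lower and 1.28% higher. The pileup is not divided by the local background and depends on the library's depth, which only the centring removes.

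A region 5.25 kb before the CHGA start (chromosome 14 from 93383186 to 93384320) was also lower in every chimera library. Its folds were 12.7, 10.5 and 12.5 in controls and 8.20, 10.1 and 8.80 in chimera libraries, among the strongest of the window. The difference of -0.29 ± 0.12 did not pass the test (SE, limma adjusted p = 0.377). The third region of the window with separated groups lay 44.4 kb before the start, at -0.24 ± 0.17 (SE, limma adjusted p = 0.639).

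Inside NCAM1, neighbouring regions differed in direction. A region 153 kb inside the gene (chromosome 11 from 112985007 to 112985543) had folds of 14.4, 11.7 and 14.7 in controls and 7.61, 9.09 and 11.1 in chimera libraries. All chimera libraries were below all controls, by -0.45 ± 0.14 (SE, limma adjusted p = 0.201), and by pileup the difference was -0.64 ± 0.19 (SE, limma adjusted p = 0.0511). The region before it, 133 kb inside the gene (from 112964389 to 112965135), had 6.92, 5.34 and 7.83 in controls and 6.63, 8.69 and 10.1 in chimera libraries. After centring every chimera library was above every control there, by 0.44 ± 0.17 (SE, limma adjusted p = 0.325). Neither NCAM1 region passed, and the difference between them was not tested.

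**Figure D3:**
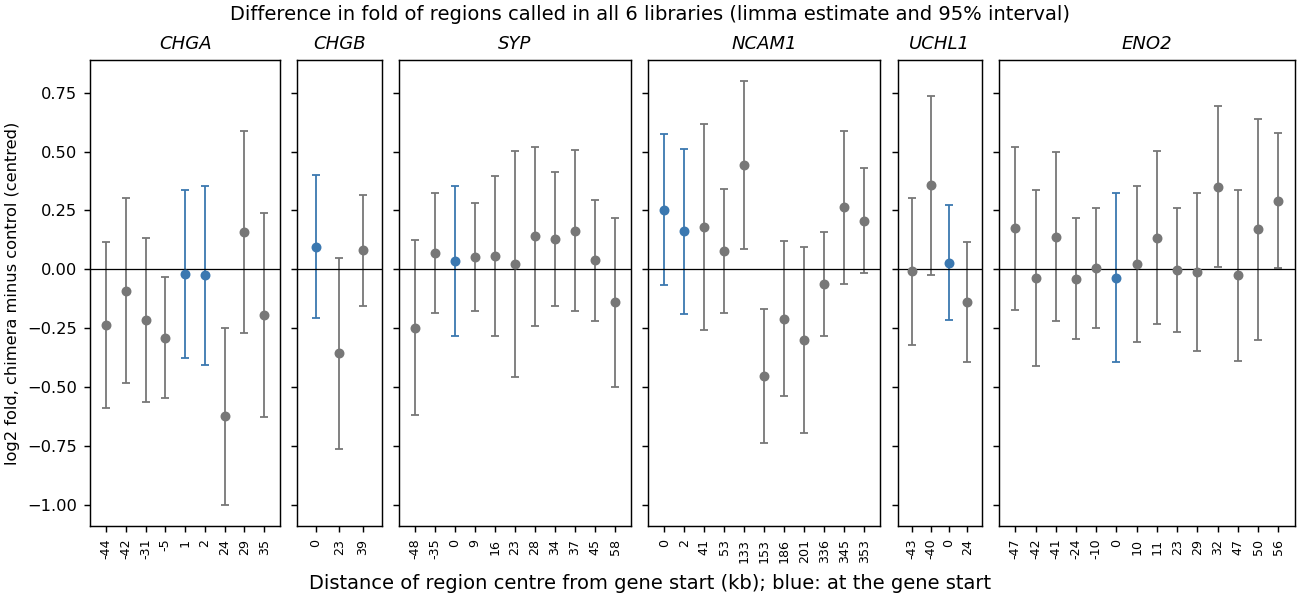
Centred log2 difference in fold, chimera minus control, with 95% limma intervals (y axis) for the 52 regions called in all 6 libraries, ordered by distance from the gene start in kb (x axis), with start regions in blue. The start regions lie between -0.04 and 0.25, and the lowest estimate is -0.62, 23.8 kb past the CHGA start.

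In the other windows the smallest unadjusted p belonged to regions outside the starts. For CHGB it was a region 22.7 kb past the start (chromosome 20 from 5914355 to 5914993), with folds of 7.14, 3.69 and 6.92 in controls and 3.80, 3.95 and 4.61 in chimera libraries. After centring the groups overlapped, control 2 lying below chimera 3 and above chimera 1 and chimera 2 (-0.36 ± 0.19, SE, limma adjusted p = 0.514). For SYP it was a region 48.2 kb before the start, at -0.25 ± 0.18, and for UCHL1 a region 40.5 kb before the start, at 0.36 ± 0.18 (SE, limma adjusted p = 0.641 and 0.480). For ENO2 it was a region 31.6 kb past the start (chromosome 12 from 7055249 to 7055918), beyond the gene's end and among its neighbours. Its folds were 4.68, 4.0 and 4.96 in controls and 5.52, 5.54 and 5.04 in chimera libraries, all above the controls (0.35 ± 0.16, SE, limma adjusted p = 0.429). The remaining regions with every chimera library above every control were 36.6 kb past the SYP start (0.16 ± 0.16) and 353 kb past the NCAM1 start (0.21 ± 0.11), with limma adjusted p = 0.756 and 0.489.

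**Figure D4:**
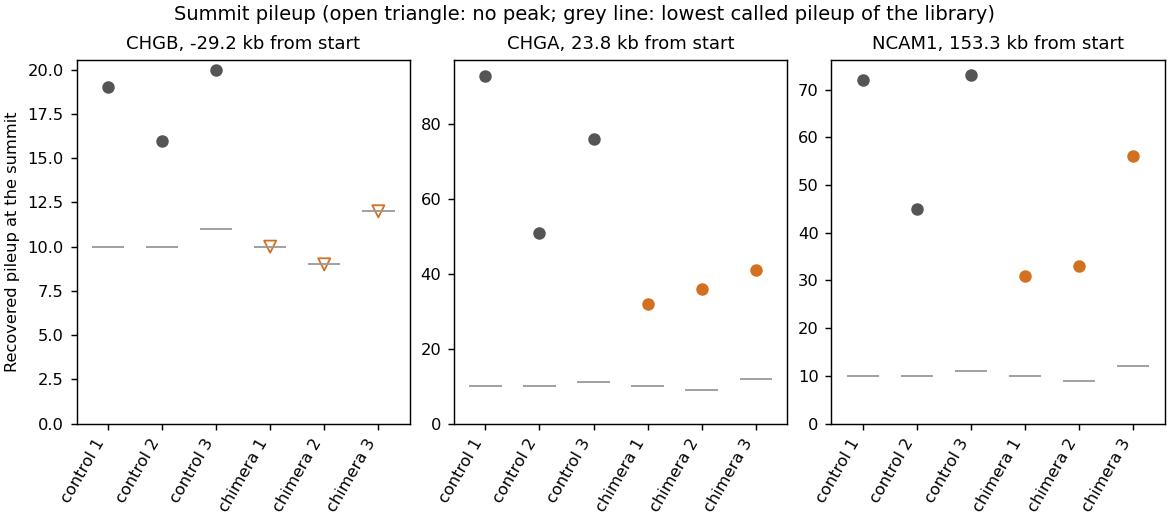
Recovered summit pileup (y axis) in each library for the CHGB flank region open in controls alone and for the CHGA and NCAM1 regions with the smallest p of their windows. Grey lines mark the lowest called pileup of each library (9 to 12) and open triangles, drawn at that line, mark libraries without a peak.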

How the data were processed

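ATAC-seq peaks of H1155 cells were compared between 3 control and 3 chimera libraries. Peaks were called per library with MACS2, per the labels inside the files (the peak names). Its version and settings, alignment, read filtering and any offset for the transposase cut were not given in the sources used here. HOMER 4.9 and GRCh38 stand in the submitters' processing notes with no role. The deposited fold is the authors' ratio to the library's local background. The deposited p and q values are on the −log10 scale, also from the authors. The deposited score column was not used.

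Peaks on chromosomes 1 to 22 and X were kept (0.0138% to 0.0211% left out). The value of a region was the fold of its strongest peak in each library. Log2 folds, centred at the library median, were fitted with limma 3.58.1 in R 4.3.3 (trended eBayes, no block), with Benjamini-Hochberg adjustment over all regions called in all 6 libraries and a threshold of 0.05. The summit pileup was recovered with a Poisson model (99.9% to 100% of each list's peaks within 0.005 in −log10 p) and tested as log2(pileup + 1). It stands in for depth, since read totals were not used here. On simulated data the fit was only required to return the mean of a known shift. That check does not show how small a difference the fit can detect. Alternatives covered peak thresholds, merging, flanks, scaling, the replicate block and leaving out each library. The text names the start regions, the regions open in one group only and, where none passed, the region with the smallest p of each window. Other regions, the motifs and the pileup test without single libraries were added after values or sequences were seen. Strand came from RefSeq for 4 genes and from background knowledge for CHGB and NCAM1. A planned list of other secretory and neuronal genes needed an annotation of the lists' build and was not analysed here. The members, lists and tests were chosen with earlier results of these data known.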

Additional observations from a re-analysis of the deposited data

How the results depend on the processing

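Counts of regions open in one group only moved with the rule. Open in controls alone was 1 region (0.799% of all regions). The count was 0 when −log10 q had to reach 10 (1.00% of all regions) and 0 with a flank of 20 kb. With lists of equal length it was 2 (0.841% of all regions). Without 1 library it was 1 to 3, beside 1.16% to 2.81% of all regions (2 without control 2, 2.81%, and 3 without chimera 2, 1.42%). When −log10 q had to reach 5 the count was also 1 (0.948% of all regions), but of another region. The CHGB region dropped out, with −log10 q of 4.93 in control 2. A region of the CHGA window from 93369134, outside the gene span, took its place, with 15.7, 8.40 and 12.7 in controls 1, 2 and 3. Its peak in chimera 2, at 3.50, fell under the limit. Open in chimera libraries alone were 0, and 2 where a library's peaks had to cover 50% of the region (0.771% of all regions). Where the count was 0, the share of all regions was 0.580% to 1.53%, leaving aside the replicate block. Regions of the windows gave 0 calls by limma in 12 of 13 alternatives (lowest adjusted p 0.147 to 0.379) and 1 lower call with the recovered pileup. These fits held 52 window regions, except 40 with −log10 q of at least 10 and 53 to 57 without 1 library. Over all regions tested, the 12 alternatives called 0 to 32 higher and 0 to 40 lower, most of them 0 of each. The recovered pileup called 723 higher and 659 lower. With so few calls over all regions, the 0 calls in the windows say little about the windows. Libraries with the same replicate number did not deviate together (Pearson's r from -0.0592 to -0.00547), so no pairing by number was seen in these deviations. Whether libraries of the same number were handled together was not tested. With the replicate block, 4 regions were open in controls alone within at least 2 of 3 numbers (5.56% of all regions). With the block in limma on fold, 0 of 52 window regions passed, against 32 higher and 40 lower of all 56679 regions. Without the block, 4 higher and 2 lower of all regions passed.

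Signs near 0 turned at the starts. Without centring, which moves the median of all regions from 0.03 to -0.08, the differences were -0.079 (UCHL1, region from 41258600), -0.011 (CHGB, from 5891435) and -0.073 (SYP, from 49056447). With the pileup they were -0.039 (UCHL1), -0.048 (CHGB), -0.030 (SYP) and 0.041 (CHGA, from 93388969). Without 1 library they ran from -0.011 to 0.070 (UCHL1), -0.15 to 0.068 (ENO2, from 7023266), -0.15 to 0.073 (CHGA, from 93388969), -0.15 to 0.071 (CHGA, from 93390352) and -0.045 to 0.12 (SYP).

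Differences in peaks per window turned to 0.667 (SYP, −log10 q of 10 or more) and 1 (ENO2, flank of 20 kb), and that in ENO2 open length to 439 bp with that flank. The difference in peaks was 0 for CHGA with lists of equal length and 0 for UCHL1 with −log10 q of at least 10. Without 1 library, peaks ran from -2 to 0.333 (CHGA), -1.83 to 0.667 (SYP) and -1.17 to 0.833 (ENO2), and ENO2 open length from -1219 to 272 bp. The cause was not tested. A low region can fall under the calling threshold of a shallow list, so absence of a peak is weak evidence for single regions.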
